A study of Mus musculus with 12 samples.

Results

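The addition of the oncogenic Ras mutant H-RasV12 to mouse embryonic fibroblasts that express KSR1 was examined by setting 3 arrays of a line carrying KSR1 and H-RasV12 against 3 arrays of a line carrying KSR1 without H-RasV12. These are 6 of the 12 arrays in the series, and every probe set other than the array's own controls was considered. All lines started from fibroblasts of KSR1-/- genotype and DBA background strain, and all also expressed green fluorescent protein (GFP). The line with KSR1, H-RasV12 and GFP is called the double line here, and the line with KSR1 and GFP the KSR1 line. The other 6 arrays came from a line with H-RasV12 and GFP and a line with GFP alone, 3 arrays each, neither of which had KSR1 restored. Each condition was 1 cell line, and whether it was a clone or a pool, and what promoter drove the transgenes, is not given in the sources used here. The 3 arrays of a line carry replicate numbers, but nothing states that they came from separate cultures, so p-values measure the spread between arrays of 1 line, which may be technical.

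KSR1 is a scaffold protein that holds Raf, MEK and ERK together, so that a signal from Ras can pass down this kinase cascade. H-RasV12 is a mutant locked in the active, GTP-bound form. In fibroblasts the cascade is known to induce immediate early transcription factors, growth factor ligands of the EGF receptor, inflammatory secreted proteins and its own phosphatases. Ras-transformed cells are also known for altered glucose and mitochondrial metabolism, matrix production and lysosome function.

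Values are MAS5 signals, the linear intensities that the authors deposited. Changes are log2 fold changes of (signal + 23) from limma with their SE, a scale that compresses changes at low signal. Testing was limited to probe sets whose signal passed 181.4, the overall median, on 3 or more arrays of the 12, and a change was called at a Benjamini-Hochberg adjusted p under 0.05 over the 6897 probe sets tested. Where a probe set passed this signal limit only on the 3 arrays of 1 line, that line could not overlap the others. The separation of such a gene is therefore a description. The probe set with the highest mean stood for each gene, which gave 5288 genes. Across probe sets, arrays of the same line correlated with r between 0.911 and 0.954 (6 pairs), and arrays of the double line and the KSR1 line with r between 0.818 and 0.870 (9 pairs). On double-line replicate 1 the beta-actin 3′ control read 8629, and on the other 5 arrays it read between 16680 and 26873. The 18S rRNA 3′ control read 146 on that array and 395 on KSR1 replicate 1, against 1130 to 3312 on the other 4. That array also lay nearest to the KSR1 line of the 3 double-line arrays in 251 of the 483 genes called higher and in 191 of the 383 called lower. The part of this array's quality in any result was not tested. Of the 215 called genes that the naming rule chose, 19 lost their call without it, and those of the 19 described here, Ctsd and Ptges2, are given with that value.

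The transcript of the transgene itself was measured by 2 Ksr1 probe sets. The first had 301, 262 and 141 on the double-line arrays, against 933, 1605 and 207 on the KSR1 arrays, with 20.2, 32.2 and 14.2 on the H-RasV12 arrays and 144, 21.1 and 37.5 on the GFP arrays. Among the KSR1 arrays 2 lay above all double-line arrays and 1 between them, so the lines overlapped, and the difference did not pass (-1.52 ± 0.62, adjusted p = 0.124). It thus read lower on the arrays without KSR1, apart from an overlap of 1 GFP array with the lowest double-line array. The other probe set averaged 294 ± 29.2 in the double line, 283 ± 76.4 in the KSR1 line, 199.7 ± 27.4 in the H-RasV12 line and 261 ± 55.0 in the GFP line (SD, n = 3 each), and so did not separate the lines. A difference in the level of KSR1 between the double line and the KSR1 line cannot be told apart from the addition of H-RasV12.

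With KSR1 present, the line with H-RasV12 differed from the line without it in many genes. Of 5288 genes 483 rose (9.13% of those tested) and 383 fell (7.24%), and the unadjusted p was under 0.05 for 1525. The shares of 9.13% and 7.24% are those to set beside each list count below. By probe set, 563 rose and 477 fell. Called changes of 4-fold or more numbered 61 upward and 76 downward. The arrays of the 2 lines did not overlap in 849 of the 866 called genes, and in 1541 of all genes tested. The median change of all genes was -0.06. Centring every array on its median moved the median of all probe sets from -0.07 to +0.09 and gave 701 higher and 308 lower, 69.5% higher in place of 54.1%, so the balance of rises and falls depends on the scaling. Leaving out KSR1 replicate 2 gave 383 higher and 316 lower probe sets, leaving out double-line replicate 2 gave 382 and 343, and leaving out double-line replicate 1 gave 598 and 583.

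**Figure D1:**
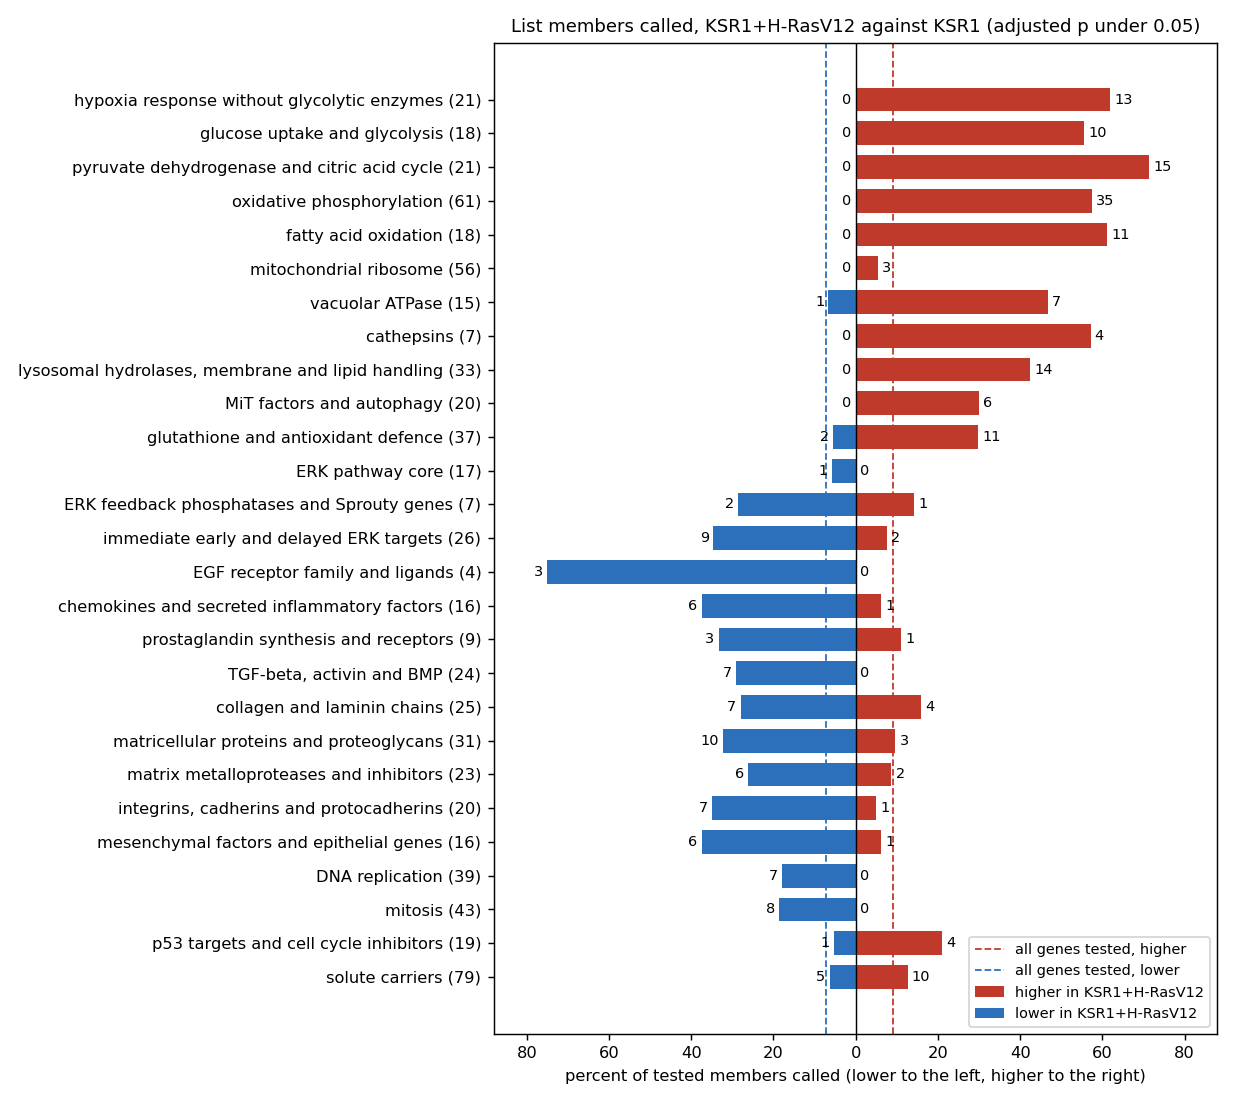
Share of the tested members of 27 gene lists that were called higher (red, right) or lower (blue, left) in the double line than in the KSR1 line, in percent, with the number of genes at the bar's end and the number tested in parentheses. The dashed lines mark the shares over all 5288 genes, 9.13% higher and 7.24% lower. Lists of metabolism and the lysosome lie to the right, with the mitochondrial ribosome under the dashed line, and lists of ERK targets, secreted factors, matrix and adhesion to the left.

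The same oncogene was also added to fibroblasts without KSR1, on 6 other arrays. That comparison called 0 genes higher and 5 lower with limma, with 318 at an unadjusted p under 0.05. On GFP replicate 1 the beta-actin 3′ control read 7981, against 17240 to 23387 on the other arrays of that comparison. The 18S rRNA 3′ control read 345 on it, against 516 to 2491 on those. The part of that array's quality in any result was not tested. Of the genes called higher with KSR1, 48.4% had a positive log2 fold change without KSR1, and of those called lower, 45.4% had a negative one. Among all 5288 genes 48.9% had the same sign in both comparisons, so the called genes were near the share of all genes. The median change of the called-higher genes was +1.04 with KSR1 and -0.02 without, and that of the called-lower genes -1.22 and +0.02. The interaction, which tests whether the response to H-RasV12 differs between the backgrounds, passed for 242 genes in the positive direction (4.58% of those tested) and for 195 in the negative (3.69%). Of the genes called higher with KSR1, 230 had a called positive interaction, and of those called lower, 176 a called negative one. By probe set the interaction was called for 287 in the positive and 244 in the negative direction, for 189 and 151 without KSR1 replicate 2 and for 188 and 151 without H-RasV12 replicate 2. These counts share the arrays that made the calls and are descriptions.

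**Figure D2:**
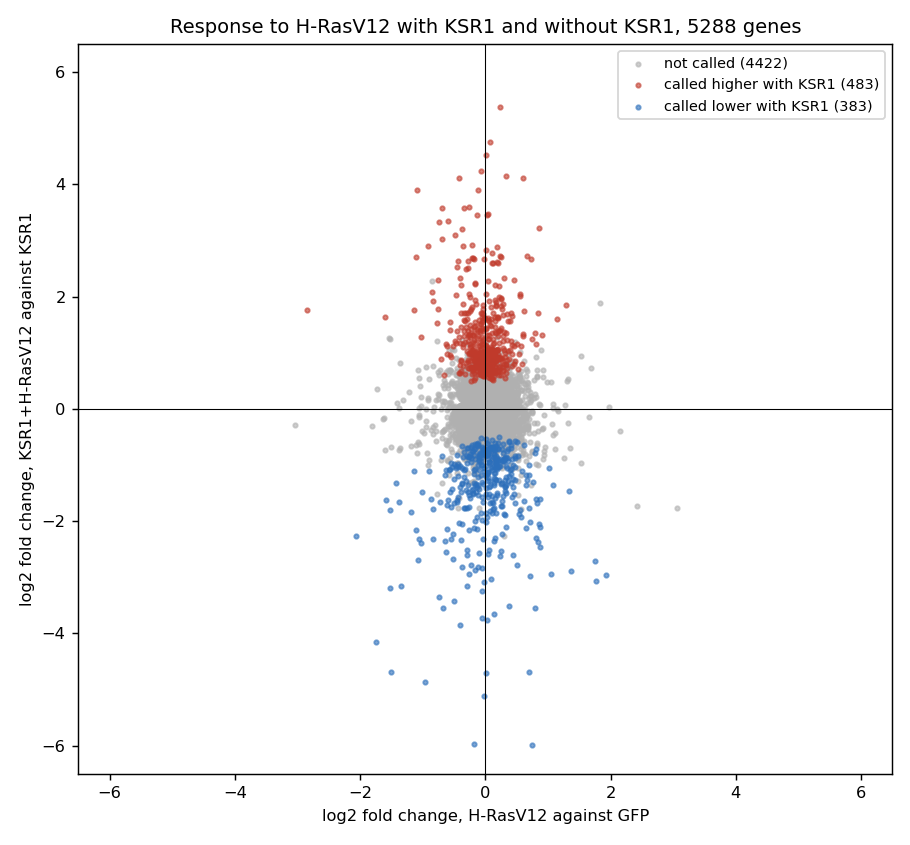
Log2 fold change of each of 5288 genes for H-RasV12 added with KSR1 (vertical axis, double line against KSR1 line) and without KSR1 (horizontal axis, H-RasV12 line against GFP line). Red and blue points are the 483 genes called higher and the 383 called lower with KSR1, which spread along the vertical axis and cluster around 0 on the horizontal one.

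The lines without KSR1 also show which member of the pair departs. Among the 483 genes called higher, 226 had all double-line arrays above all 6 arrays of the H-RasV12 and GFP lines while the KSR1 arrays did not stand apart from those 6, against 380 such genes among all 5288. In 122 of them the KSR1 arrays lay below those 6 and the double-line arrays did not stand apart, and in 42 both held. The second pattern was met by 353 of all genes, and in 65 of the called genes neither line stood apart. Among the 383 called lower, 132 had the double-line arrays below the 6 with the KSR1 arrays not apart, 102 had the KSR1 arrays above the 6 with the double-line arrays not apart, and 24 had both. Over all genes these patterns were met by 319 and 290 genes, and in 84 of the called genes neither line stood apart. A gene with both lines apart in opposite directions was called in every case, 42 of 42 and 24 of 24. The lines of such a gene cannot overlap by definition, on the same arrays that made the call, so this is a description. As bulk RNA was measured, a change in every cell and a change in the share of some cells cannot be told apart, for any gene. A called difference covered genes that were high or low in the double line alone and genes in which the KSR1 line was the one that stood apart. No test was made of this split.

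Among called genes whose lines did not overlap, the largest rises were spread over metabolism, matrix and membrane genes. Chchd10, a mitochondrial intermembrane space protein, read 9179, 9735 and 11384 on the double-line arrays, against 328, 98.0 and 319 on the KSR1 arrays. It averaged 278 in the H-RasV12 line and 231 in the GFP line, so only the double line was high among the 4. Lpl, the lipoprotein lipase that frees fatty acids from circulating fat, had 213, 774 and 1201 on the double-line arrays, against 19.1, 11.9 and 24.2 on the KSR1 arrays (+3.90 ± 0.54, adjusted p = 0.000194). Creg1, a secreted and lysosomal glycoprotein, had 464, 684 and 814 on the double-line arrays, against 25.9, 8.46 and 13.1 on the KSR1 arrays (+4.11 ± 0.44, adjusted p = 2.71e-05). In both genes every double-line array lay above every KSR1 array, a condition of their choice, with replicate 1 the lowest of the double line. For Lpl the filter also fixed this, as it passed on the double-line arrays alone. Selenbp1, a selenium-binding methanethiol oxidase, rose by +3.90 ± 0.45, the ceramide kinase gene Cerk by +3.46 ± 0.33, the vesicle SNARE gene Vamp5 by +3.58 ± 0.43 and the phospholipid scramblase gene Plscr2 by +3.59 ± 0.45. Cd28, better known as a costimulatory receptor of T cells, read 201, 942 and 784 on the double-line arrays, against 39.5, 15.5 and 19.3 on the KSR1 arrays (+3.58 ± 0.51, adjusted p = 0.000224).

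Some of the genes with the largest rises were in the double line near their level in the lines without KSR1. Tgfbi, an extracellular matrix protein named for its induction by TGF-beta, read 974, 1563 and 744 on the double-line arrays, against 55.1, 28.7 and 34.0 on the KSR1 arrays (+4.12 ± 0.53, adjusted p = 0.000116), while the H-RasV12 line averaged 799 and the GFP line 749. Stbd1, a glycogen-binding protein, read 627, 804 and 484 on the double-line arrays, against 65.6, 13.6 and 42.0 on the KSR1 arrays (+3.45 ± 0.30, adjusted p = 5.04e-06), with 754 in the H-RasV12 line and 721 in the GFP line. In these genes the KSR1 line was the low one. The basement membrane collagen gene Col4a1 showed the same order, as described with the matrix genes.

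Among the largest falls, chosen in the same way, several genes were high in the KSR1 line and low in the other 3. Chrnb1, the beta subunit of the muscle acetylcholine receptor, read 4.41, 12.5 and 10.4 on the double-line arrays, against 346, 481 and 495 on the KSR1 arrays (-3.84 ± 0.45, adjusted p = 5.66e-05), and averaged 8.06 in the H-RasV12 line and 19.1 in the GFP line. The transcript U90926 read 570.5, 567 and 427 on the double-line arrays, against 9582, 15728 and 17702 on the KSR1 arrays (-4.69 ± 0.35, adjusted p = 1.39e-06). Its double-line values lay below those of the H-RasV12 line, at a mean of 888, and of the GFP line, at 2696. In other genes the double line alone was low. Cd34, a surface sialomucin of progenitor cells and fibroblasts, read 384, 113 and 82.5 on the double-line arrays, against 3030, 2218 and 2126 on the KSR1 arrays (-3.77 ± 0.37, adjusted p = 1.22e-05), against means of 2393 in the H-RasV12 line and 2306 in the GFP line. Igfbp4, which binds insulin-like growth factors, read 327, 45.3 and 31.5 on the double-line arrays, against 3443, 3158 and 1990 on the KSR1 arrays (-4.69 ± 0.57, adjusted p = 7.82e-05). Sgce, an imprinted sarcoglycan, read 17.6, 32.1 and 37.6 on the double-line arrays, against 567, 424 and 526 on the KSR1 arrays (-3.35 ± 0.32, adjusted p = 1.03e-05). The highest double-line array for Cd34 and Igfbp4 was replicate 1, still far under every KSR1 array. Ptpn22, a phosphatase of lymphocyte signalling, fell by 3.54 ± 0.47 on the log2 scale.

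Of the messengers of the cascade itself 1 was called, and several of its ligands, feedback regulators and targets fell. Of 17 tested genes of the Ras, Raf, MEK and ERK core 0 rose and 1 fell, with a median of +0.22. Over all genes 9.13% rose and 7.24% fell, so the falls in the core were near the share of all genes. Map2k1, which encodes MEK1, had 1300, 1331 and 1526 on the double-line arrays, against 1060, 1293 and 871 on the KSR1 arrays (+0.37 ± 0.20, adjusted p = 0.237), an overlap of the lines. The gene that fell was Rasa1, a GTPase-activating protein that switches Ras off, with 1333, 924 and 1151 on the double-line arrays, against 3155, 1662 and 2998 on the KSR1 arrays (-1.14 ± 0.23, adjusted p = 0.00303). Its KSR1 arrays all lay above the double-line arrays. Leaving out KSR1 replicate 3 gave 3 lower genes in this list and leaving out double-line replicate 1 gave 2. Leaving out GFP replicate 1, GFP replicate 2 or double-line replicate 3 gave 1 higher gene. With the replicate number as a block 1 gene rose and 2 fell.

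Of the 4 tested genes of the EGF receptor family and its ligands 3 fell and 0 rose, beside 7.24% falls over all genes. Ereg, the ligand epiregulin, read 606, 67.9 and 209 on the double-line arrays, against 2606, 3438 and 2888 on the KSR1 arrays (-3.66 ± 0.52, adjusted p = 0.000241). Hbegf, the heparin-binding ligand, read 259.6, 221 and 311 on the double-line arrays, against 1039, 786 and 689.6 on the KSR1 arrays (-1.58 ± 0.28, adjusted p = 0.00123). Egfr, the receptor, read 105, 94.5 and 47.0 on the double-line arrays, against 467, 293 and 187 on the KSR1 arrays (-1.65 ± 0.35, adjusted p = 0.0046). In each of these genes no double-line array reached the lowest KSR1 array. For the ligands the KSR1 line was the high one of the 4. Hbegf averaged 232 in the H-RasV12 line and 228 in the GFP line, close to the double line. Errfi1, a feedback inhibitor of the EGF receptor, fell alongside, with 2885, 1212 and 1978 on the double-line arrays, against 6991, 7505 and 7372 on the KSR1 arrays (-1.92 ± 0.28, adjusted p = 0.00031), and averaged 1718 in the H-RasV12 line and 1138 in the GFP line.

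Of 7 tested ERK phosphatase and feedback genes 2 fell and 1 rose, beside 7.24% falls and 9.13% rises over all genes. Besides Errfi1, Dusp6, the phosphatase that removes ERK's activating phosphates, read 577, 43.6 and 62.5 on the double-line arrays, against 740.3, 829 and 701 on the KSR1 arrays (-2.37 ± 0.59, adjusted p = 0.0135). One double-line array, replicate 1, lay near the KSR1 arrays and the other 2 far below. The Dusp6 call ended without KSR1 replicate 2 (adjusted p = 0.0514), double-line replicate 2 (0.0738) or double-line replicate 3 (0.0614), and without any of these 3 arrays 1 gene of the list fell. Dusp16, a phosphatase that acts on JNK and p38, rose by +0.93 ± 0.22, a call that ended with replicates 2 and 3 alone (adjusted p = 0.0657). Dusp9, of the same list, lay below the filter and was not tested. It read 197, 117 and 196 on the double-line arrays, against 2.11, 2.74 and 5.13 on the KSR1 arrays. Its means were 11.8 in the H-RasV12 line and 3.50 in the GFP line.

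Of 26 tested immediate early and delayed ERK targets 9 fell and 2 rose, with a median of -0.61 against -0.06 over all genes. Hmga2, a chromatin architectural protein, read 1678, 477 and 944 on the double-line arrays, against 4703, 7510 and 6461 on the KSR1 arrays (-2.71 ± 0.49, adjusted p = 0.00147). Egr1, an immediate early zinc finger factor, read 695, 269.8 and 316 on the double-line arrays, against 1077, 1203 and 1736 on the KSR1 arrays (-1.68 ± 0.38, adjusted p = 0.00691). Plaur, the urokinase receptor, read 425, 289.9 and 576 on the double-line arrays, against 1120, 1024 and 1246 on the KSR1 arrays (-1.39 ± 0.24, adjusted p = 0.00108). For these 3 genes the lines did not overlap and the double line was lower on every array. Timp1, an inhibitor of matrix metalloproteases, fell to 3566 ± 1257 in the double line, against 10943 ± 1143 in the KSR1 line (SD, n = 3 each). Phlda1 fell by 2.29 ± 0.43, the orphan nuclear receptor gene Nr4a1 by 1.76 ± 0.34 and Myc by 1.29 ± 0.29 on the log2 scale. In the other direction the stress-induced factor gene Atf3 read 502, 899.7 and 1424 on the double-line arrays, against 295, 316 and 202 on the KSR1 arrays (+1.62 ± 0.30, adjusted p = 0.00172), and Mcl1, a survival protein of the Bcl-2 family, rose by +1.24 ± 0.24.

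**Figure D3:**
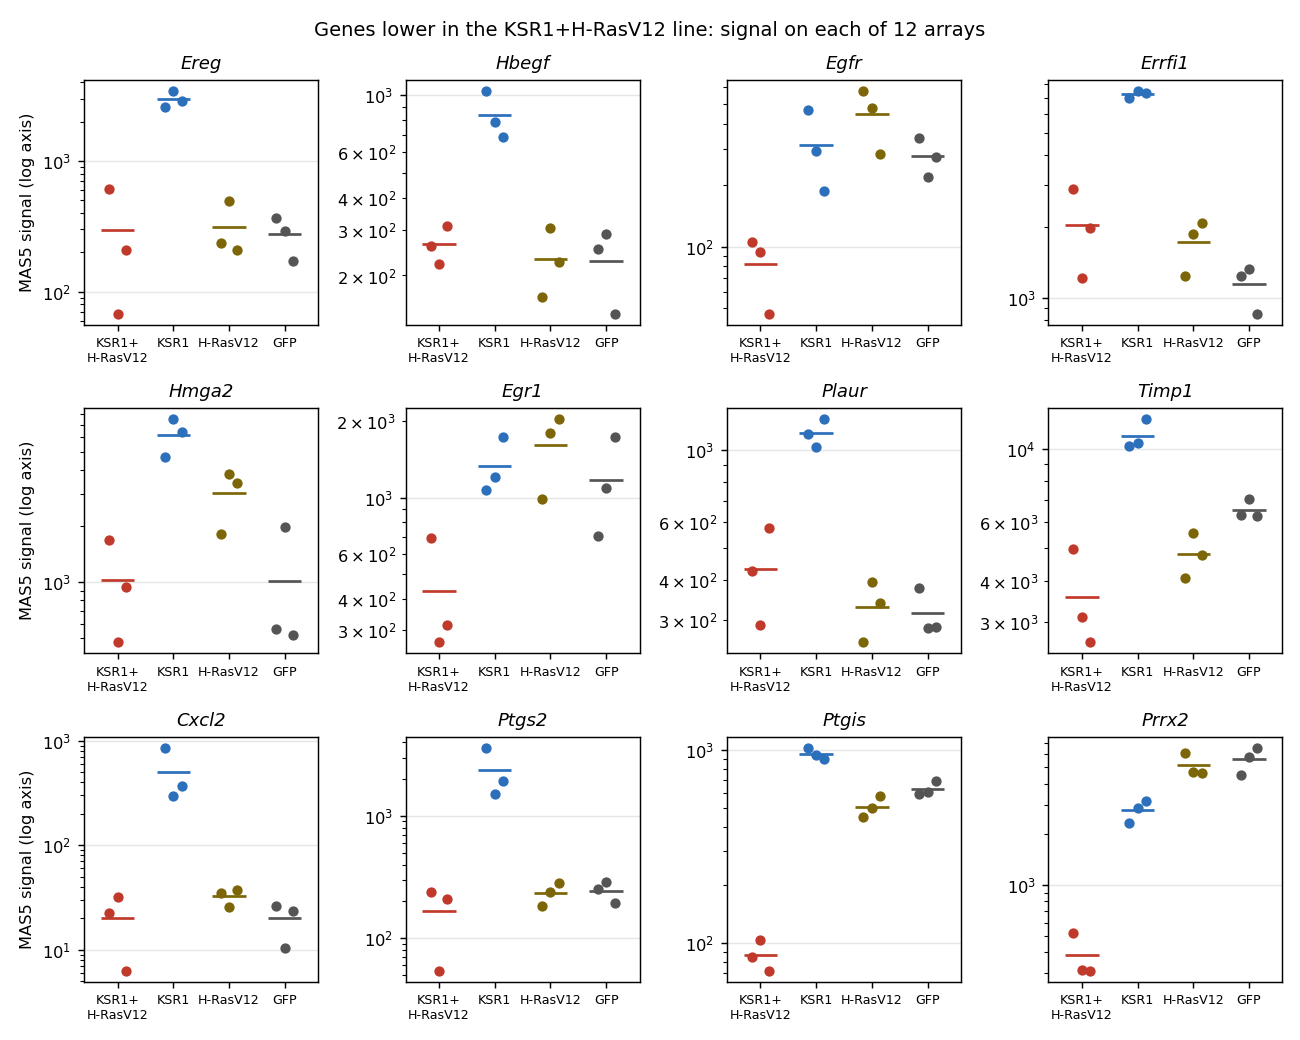
MAS5 signal (log axis) of 12 genes called lower in the double line, on each of 12 arrays, with the double line left of the KSR1 line and the H-RasV12 and GFP lines to the right. Points are arrays and bars are means of 3. Ereg, Hbegf, Errfi1, Plaur, Cxcl2 and Ptgs2 are high in the KSR1 line alone, while Ptgis and Prrx2 are low in the double line alone.

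Several chemokines and other inflammatory secreted factors fell. Of 16 tested, 6 fell and 1 rose, with a median of -1.12. Cxcl2, a neutrophil chemokine, read 22.3, 32.0 and 6.33 on the double-line arrays, against 856, 295 and 366 on the KSR1 arrays (-3.51 ± 0.47, adjusted p = 0.000148). Its double-line values were as low as those without KSR1, where it averaged 32.8 with H-RasV12 and 20.2 with GFP. Csf1, the growth factor of macrophages, read 871, 594 and 1329 on the double-line arrays, against 2219, 2880 and 3977 on the KSR1 arrays (-1.71 ± 0.27, adjusted p = 0.000656). Ptx3, a soluble pattern recognition protein, read 99.1, 90.6 and 83.9 on the double-line arrays, against 445, 660.0 and 486 on the KSR1 arrays (-2.26 ± 0.31, adjusted p = 0.000183). Both lay lower on every double-line array than on any KSR1 array. Ptx3 was also called lower with H-RasV12 without KSR1 (-2.06 ± 0.31, adjusted p = 0.0228), at means of 658 with H-RasV12 and 2979 with GFP. Its interaction was not called (-0.20 ± 0.44, adjusted p = 0.862). Il6 read 142, 33.2 and 111 on the double-line arrays, against 4975, 393 and 434 on the KSR1 arrays (-3.19 ± 0.82, adjusted p = 0.0162), with KSR1 replicate 1 far above the other 2. Without that array its adjusted p was 0.059, and without double-line replicate 2 it was 0.0778. Cxcl5 read 1569, 419 and 378 on the double-line arrays, against 9364, 8237 and 5849 on the KSR1 arrays (-3.55 ± 0.88, adjusted p = 0.0133), and its call ended without double-line replicate 2 (adjusted p = 0.0603) or replicate 3 (0.053). The exception among those tested was Cxcl12, a chemokine of stromal cells. It had 304, 238 and 267 on the double-line arrays, against 1.45, 8.23 and 8.03 on the KSR1 arrays (+3.34 ± 0.31, adjusted p = 7.87e-06). Its double-line level was below that of the lines without KSR1, where it averaged 2316 with H-RasV12 and 3630 with GFP. Ccl8, which lay below the filter, also read higher, with 529, 174 and 244 on the double-line arrays, against 37.6, 51.4 and 63.0 on the KSR1 arrays. Ccl6 and Tnf, dimmer and also below the filter, were lower on every double-line array.

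Genes of prostaglandin synthesis were mostly lower among those called. Of 9 tested, 3 fell and 1 rose, and 5 fell with the replicate number as a block. Ptgs2, the inducible cyclooxygenase, read 239, 54.3 and 210.0 on the double-line arrays, against 3604, 1519 and 1946 on the KSR1 arrays (-3.73 ± 0.41, adjusted p = 3.17e-05). Ptges, the prostaglandin E synthase next in the pathway, read 693, 496 and 296 on the double-line arrays, against 2397, 1766 and 1283 on the KSR1 arrays (-1.86 ± 0.36, adjusted p = 0.00249). Ptgis, the prostacyclin synthase, read 85.4, 104 and 72.3 on the double-line arrays, against 1025, 946 and 899 on the KSR1 arrays (-3.16 ± 0.18, adjusted p = 6.28e-08). The lines did not overlap in any of the 3. Ptgs2 and Ptges in the double line were near their level without KSR1, at 235 and 437 in the H-RasV12 line. Ptgis was lower than in either of those lines, at 509 in the H-RasV12 line and 627 in the GFP line. The gene that rose, Ptges2, lost its call without KSR1 replicate 2 (adjusted p = 0.0849), KSR1 replicate 3 (0.102) or double-line replicate 1 (0.0867).

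Many lysosome genes rose. Lysosomes are acidified by the vacuolar ATPase, a proton pump of many subunits, and digest their cargo with cathepsins and other acid hydrolases. The transcription factors of the MiT family, Mitf among them, are known to drive many of these genes through the CLEAR element in their promoters. Of 15 tested vacuolar ATPase subunits 7 rose and 1 fell, with a median of +0.69. Of 7 cathepsins 4 rose and 0 fell. Of 33 other lysosomal hydrolases, membrane and lipid-handling genes 14 rose and 0 fell, with a median of +0.54, and of 20 MiT and autophagy genes 6 rose and 0 fell. The share of all genes called higher was 9.13%. The cathepsins had 1 fall when KSR1 replicate 3 was omitted, when double-line replicate 1 was omitted and with the replicate block, and the lysosomal genes 1 without double-line replicate 1.

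The core of the CLEAR element (TCACGTGA, which reads the same on both strands and contains the E-box CACGTG) was looked for in the promoters, the 300 bases from 250 before to 50 after the start site. Promoter sequences are those of RefSeq, build GRCm38.p6, and covered 4300 of the 5288 genes. It was present in 2 of 5 cathepsin promoters (40%), 3 of 10 of the vacuolar ATPase (30%) and 3 of 29 of the other lysosomal genes (10.3%), against 2.44% of all genes tested. The sequences around the match are shown for 4 genes that rose, with the element in capitals.
Ctsa: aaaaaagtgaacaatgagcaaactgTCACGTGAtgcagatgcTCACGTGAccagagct
Ctsd: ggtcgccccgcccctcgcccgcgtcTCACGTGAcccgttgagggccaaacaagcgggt
Atp6v1a: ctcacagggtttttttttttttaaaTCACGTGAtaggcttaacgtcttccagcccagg
Igf2r: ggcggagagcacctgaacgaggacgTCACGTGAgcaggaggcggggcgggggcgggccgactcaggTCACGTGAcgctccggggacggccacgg
They lie at chr2:164833735-164833792 on the plus strand for Ctsa, and on the minus strand at chr7:142387894-142387951 for Ctsd, chr16:44139359-44139416 for Atp6v1a and chr17:12769687-12769780 for Igf2r. The first match starts at position -13 from the start site in Ctsa, -99 in Ctsd, -132 in Atp6v1a and -49 in Igf2r, and Ctsa and Igf2r hold 2 each. A match describes these letters and is no evidence that a factor binds there.

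The 5 pump subunits with the largest rises belong to the part that splits ATP. Atp6v1b2, a subunit of the part that splits ATP, read 4074, 6269 and 6044 on the double-line arrays, against 1128, 1185 and 1763 on the KSR1 arrays (+1.99 ± 0.23, adjusted p = 4.23e-05). Atp6v1a, its catalytic partner whose promoter is shown above, read 4503, 7361 and 7309 on the double-line arrays, against 2413, 2003 and 3174 on the KSR1 arrays (+1.32 ± 0.27, adjusted p = 0.0033). Atp6v1c1 read 2992, 3516 and 3424 on the double-line arrays, against 1319, 1259 and 1599 on the KSR1 arrays (+1.24 ± 0.15, adjusted p = 8.81e-05). The lines stood apart in all 3, and Atp6v1d rose by +1.16 ± 0.24 and Atp6v1g1 by +1.03 ± 0.23. Atp6v0e2, a subunit of the membrane part, fell, with 525, 1082 and 904 on the double-line arrays, against 2037, 2397 and 1883 on the KSR1 arrays (-1.36 ± 0.29, adjusted p = 0.00492).

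Among the enzymes, Ctsk, a collagen-degrading cathepsin, read 3828, 4753 and 4303 on the double-line arrays, against 512, 124 and 129.6 on the KSR1 arrays, and was low in the other lines at means of 115 with H-RasV12 and 154 with GFP. Ctsb read 12597, 12101 and 11110 on the double-line arrays, against 6272, 5104 and 5890 on the KSR1 arrays (+1.05 ± 0.17, adjusted p = 0.000713) and Ctsa, which protects other lysosomal enzymes, 2042, 2164 and 2112 on the double-line arrays, against 1110, 919 and 947 on the KSR1 arrays (+1.07 ± 0.22, adjusted p = 0.00399). The lines did not overlap in either. Ctsd, an aspartic protease, rose less (+0.77 ± 0.23, adjusted p = 0.0361). The Ctsd call ended in 9 of 22 alternatives, among them without KSR1 replicate 2 (adjusted p = 0.0506), KSR1 replicate 3 (0.138), double-line replicate 1 (0.111) or double-line replicate 2 (0.108). Npc1, which exports cholesterol from the lysosome, read 1252, 1321 and 1083 on the double-line arrays, against 450.3, 349 and 383 on the KSR1 arrays (+1.58 ± 0.19, adjusted p = 6.17e-05). Lipa, the acid lipase, read 489.6, 324 and 295 on the double-line arrays, against 99.7, 59.5 and 90.8 on the KSR1 arrays (+1.87 ± 0.35, adjusted p = 0.00178), and Grn, which encodes progranulin, 3159, 2261 and 1962 on the double-line arrays, against 914, 769 and 605 on the KSR1 arrays (+1.65 ± 0.25, adjusted p = 0.000384). Every double-line array lay above every KSR1 array in these genes. Plin2, which coats lipid droplets, read 15576, 18016 and 18482 on the double-line arrays, against 4111, 2748 and 3750 on the KSR1 arrays (+2.30 ± 0.19, adjusted p = 3.01e-06), and Igf2r, the receptor that sorts acid hydrolases to the lysosome, rose by +0.92 ± 0.16.

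The MiT and autophagy list had a median of +0.23, and 14 of its 20 tested genes did not pass. Among the 6 that rose, Mitf read 417, 2262 and 642 on the double-line arrays, against 70.1, 169.9 and 144 on the KSR1 arrays (+2.60 ± 0.56, adjusted p = 0.00561). Rragd, a GTPase that recruits mTORC1 to the lysosome and a known MiT target, read 441, 578 and 489.8 on the double-line arrays, against 159.6, 85.5 and 79.5 on the KSR1 arrays (+2.05 ± 0.37, adjusted p = 0.00143). Sqstm1, the autophagy cargo receptor p62, read 3532, 4104 and 3678 on the double-line arrays, against 1637, 1266 and 1462 on the KSR1 arrays (+1.36 ± 0.20, adjusted p = 0.000267). None of the 3 overlapped, although the double-line arrays of Mitf spread widely, with replicate 2 the highest. Retreg1, a receptor for autophagy of the endoplasmic reticulum, read 2509, 3962 and 3182 on the double-line arrays, against 1049, 1366 and 1402 on the KSR1 arrays (+1.31 ± 0.28, adjusted p = 0.0046). It was already raised in the KSR1 line beside the lines without KSR1, which averaged 239 with H-RasV12 and 127 with GFP, and its interaction was not called (+0.41 ± 0.39, adjusted p = 0.624).

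Cd68, Ctsk and Mitf also mark macrophages, osteoclasts and melanocytes. Cd68 read 3559, 5184 and 3293 on the double-line arrays, against 162, 146 and 142 on the KSR1 arrays. Of 17 leukocyte and macrophage markers other than Cd68, 5 were tested and 0 were called, and their summed signal lay between 2361 and 2767 on the double-line arrays and between 3105 and 5885 on the KSR1 arrays. Ptprc, Lyz2 and Fcer1g averaged under 23 in both lines, and Adgre1 read 5.85, 14.4 and 3.97 on the double-line arrays, against 23.1, 24.7 and 26.6 on the KSR1 arrays. Of the osteoclast markers Acp5 read 56.2, 43.9 and 43.9 on the double-line arrays, against 75.3, 25.5 and 21.1 on the KSR1 arrays. Calcr averaged under 23 in both lines, while Nfatc1 rose by +1.47 ± 0.34. Nfatc1 averaged 144 in the double line, 38.3 in the KSR1 line, 177 in the H-RasV12 line and 154 in the GFP line. The KSR1 line was thus the low one, and the Nfatc1 interaction was not called (+1.31 ± 0.48, adjusted p = 0.126). Of the melanocyte markers Tyr, Tyrp1 and Dct lay below the filter, and Mitf was the only one of 3 tested that was called. Of 6 tested neuron and glia markers 0 rose and 3 fell (Gap43, Uchl1 and Map2), with sums between 3510 and 5008 on the double-line arrays and between 8411 and 9896 on the KSR1 arrays, and Snap25, Syt1, Nefl, Nefm and Elavl4 under 23 in both lines. Of 3 tested mesothelial markers Krt19 rose and Msln fell (-1.77 ± 0.37, adjusted p = 0.0042). The part of other cell types in these changes was not tested. Of 12 tested fibroblast markers 0 rose and 3 fell (Dcn, Pdgfrb and Col1a1), with their summed signal between 30524 and 44140 on the double-line arrays and between 47924 and 48731 on the KSR1 arrays, with Thy1 under 23 in both lines and the Vim probe set below the filter.

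Many mitochondrial enzymes rose, and few proteins of the mitochondrial ribosome did. Respiratory chain complexes pass electrons to oxygen and the ATP synthase uses the resulting proton gradient. Of 61 tested genes of oxidative phosphorylation 35 rose and 0 fell, with a median of +0.78. Leaving out KSR1 replicate 1 or KSR1 replicate 2 left 21 rises, and leaving out double-line replicate 2 left 20. Of 21 pyruvate dehydrogenase and citric acid cycle genes 15 rose and 0 fell (+0.89), and of the 18 fatty acid oxidation genes, 11 were higher and 0 lower (+0.80). Of 56 proteins of the mitochondrial ribosome 3 rose and 0 fell, with a median of +0.18, a share below that of all genes. It was 1 without KSR1 replicate 1, KSR1 replicate 2 or double-line replicate 3, and 5 with the replicate block. The difference between these lists was not tested.

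Among respiratory genes, Uqcr10, a small subunit of complex III, read 4474, 4760 and 4594 on the double-line arrays, against 1389, 1679 and 2139 on the KSR1 arrays (+1.42 ± 0.21, adjusted p = 0.00031). Uqcrb, of the same complex, read 4661, 5504 and 5000 on the double-line arrays, against 2093, 1747 and 2753 on the KSR1 arrays (+1.21 ± 0.19, adjusted p = 0.000475). Sdhb, the iron-sulphur subunit of complex II, read 4472, 3799 and 3609 on the double-line arrays, against 2296, 1869 and 1910 on the KSR1 arrays (+0.96 ± 0.17, adjusted p = 0.00138), and Ndufa6 of complex I 1221, 1423 and 1028 on the double-line arrays, against 530.2, 469 and 598 on the KSR1 arrays (+1.16 ± 0.19, adjusted p = 0.000663). All double-line arrays lay above all KSR1 arrays in these genes. Sdhb and Ndufa6 were picked after their values were seen, because their promoters hold the motif shown next.

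NRF1 is a transcription factor known for its sites in the promoters of respiratory genes. The core GCGCATGC, searched on both strands (where 2 copies can overlap), was present in 10 of 49 oxidative phosphorylation promoters (20.4%), in 7 of the 26 whose gene rose (26.9%) and in 3 of 16 of the fatty acid oxidation list (18.8%), against 6.65% of all genes tested. The sequences around the match are shown for 4 genes that rose, with the core in capitals.
Acadm: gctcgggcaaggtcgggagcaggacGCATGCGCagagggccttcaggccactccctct
Etfdh: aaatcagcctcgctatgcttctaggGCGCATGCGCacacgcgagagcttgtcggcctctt
Ndufa6: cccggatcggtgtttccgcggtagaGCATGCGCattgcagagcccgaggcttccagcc
Sdhb: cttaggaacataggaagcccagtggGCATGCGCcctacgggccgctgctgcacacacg
They lie at chr3:153944769-153944826, chr3:79628861-79628920 and chr15:82354342-82354399 on the minus strand for Acadm, Etfdh and Ndufa6, and at chr4:140961192-140961249 on the plus strand for Sdhb. The element bound by ERR receptors (TNAAGGTCA, both strands) was in 1 of the 49 oxidative phosphorylation promoters (Sdhd, 2.04%), against 0.93% of all genes tested.

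Acadm, the first enzyme of medium-chain fatty acid oxidation, read 1061, 2714 and 1676 on the double-line arrays, against 543, 478 and 506 on the KSR1 arrays (+1.69 ± 0.30, adjusted p = 0.00133). Etfdh, which hands the electrons of that pathway to the respiratory chain, read 537, 979 and 767 on the double-line arrays, against 296, 292 and 314 on the KSR1 arrays (+1.24 ± 0.25, adjusted p = 0.0033). Decr1, needed for unsaturated fatty acids, read 559, 522 and 467 on the double-line arrays, against 258, 150.1 and 159 on the KSR1 arrays (+1.38 ± 0.23, adjusted p = 0.000833). The lines did not overlap in these genes. Decr1 in the double line lay near its level without KSR1, at means of 505 with H-RasV12 and 643 with GFP, so the KSR1 line was the low one. At the entry to the citric acid cycle, the pyruvate dehydrogenase kinase gene Pdk4, whose product switches the enzyme off, read 1706, 2019 and 2008 on the double-line arrays, against 589, 251 and 145 on the KSR1 arrays (+2.66 ± 0.36, adjusted p = 0.000151), and Pdk1 683, 1370 and 888 on the double-line arrays, against 430.3, 346 and 214 on the KSR1 arrays (+1.50 ± 0.28, adjusted p = 0.00212). These inhibitory kinases rose together with the enzyme's own subunits Pdhb (+1.61 ± 0.20) and Dlat (+1.08 ± 0.19). Idh3a, a subunit of the cycle's NAD-dependent isocitrate dehydrogenase, read 674, 1185 and 1470 on the double-line arrays, against 428, 511 and 409 on the KSR1 arrays (+1.20 ± 0.24, adjusted p = 0.00284).

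Ppargc1a and Esrra are known regulators of these genes. Ppargc1a, which encodes the coactivator PGC-1alpha, was dim and lay below the filter, with 55.3, 156 and 115 on the double-line arrays and 8.81, 29.2 and 14.2 on the KSR1 arrays. Without the filter it rose (+1.66 ± 0.31, adjusted p = 0.00467), with no overlap. Esrra, its partner receptor ERR alpha, had 2 probe sets. The first read 372, 386 and 488 on the double-line arrays and 128, 84.6 and 173 on the KSR1 arrays (+1.57 ± 0.31, adjusted p = 0.00283). The second, which stood for the gene, read 1194, 893 and 1012 on the double-line arrays, against 722, 505 and 437 on the KSR1 arrays and did not pass (+0.89 ± 0.30, adjusted p = 0.0598), although the lines did not overlap on it.

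Many genes of glucose uptake, glycolysis and the hypoxia response rose. Glycolysis turns glucose into pyruvate and lactate, and the hypoxia factor HIF-1 is known to induce its enzymes. Of 18 tested glycolytic genes 10 rose and 0 fell, with a median of +0.68. Of 21 other hypoxia-response genes 13 rose and 0 fell, with a median of +1.22. Omission of KSR1 replicate 3 left 6 glycolytic rises, and omission of double-line replicate 2 left 5 glycolytic and 8 hypoxia rises.

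Pfkp, the platelet form of phosphofructokinase, read 2428, 3667 and 3687 on the double-line arrays, against 469, 445 and 345 on the KSR1 arrays (+2.88 ± 0.20, adjusted p = 5.7e-07). Ldhb, a lactate dehydrogenase subunit, read 566, 1544 and 1004 on the double-line arrays, against 248, 137 and 147 on the KSR1 arrays (+2.34 ± 0.31, adjusted p = 0.00013). Eno2, an enolase, read 2474, 1971 and 1530 on the double-line arrays, against 705, 484 and 281 on the KSR1 arrays (+2.04 ± 0.31, adjusted p = 0.00042). These 3 separated the lines fully. The bright muscle pyruvate kinase gene Pkm did not pass (+0.18 ± 0.18, adjusted p = 0.58), nor did Ldha (+0.38 ± 0.18, adjusted p = 0.195) or Hk1 (+0.10 ± 0.26, adjusted p = 0.832). Of the glucose transporters, Slc2a1 read 3892, 4527 and 3346 on the double-line arrays, against 1641, 1377 and 550.2 on the KSR1 arrays (+1.83 ± 0.41, adjusted p = 0.0065) and Slc2a3 508, 543 and 263 on the double-line arrays, against 144, 144 and 99.5 on the KSR1 arrays (+1.55 ± 0.31, adjusted p = 0.00328). Slc2a1 was raised in steps across the lines, at 475 with H-RasV12 and 418 with GFP, and its interaction was not called (+1.58 ± 0.57, adjusted p = 0.124).

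Bhlhe40, a repressor of circadian and stress genes, read 1750, 3224 and 1891 on the double-line arrays, against 301, 204 and 212 on the KSR1 arrays (+3.10 ± 0.31, adjusted p = 1.65e-05). Ero1a, the oxidase that forms disulphide bonds in the endoplasmic reticulum, read 7075, 15595 and 11069 on the double-line arrays, against 1757, 1761 and 1037 on the KSR1 arrays (+2.84 ± 0.28, adjusted p = 1.22e-05). Ndrg1 read 4266, 10514 and 5710 on the double-line arrays, against 1006, 1292 and 645 on the KSR1 arrays (+2.72 ± 0.31, adjusted p = 4.26e-05), and Bnip3, a mitophagy receptor, 2627, 3995 and 2779 on the double-line arrays, against 992, 1091 and 329 on the KSR1 arrays (+2.08 ± 0.46, adjusted p = 0.00698). No array of the double line fell into the range of the KSR1 line. Of the double-line arrays replicate 2 was the highest in all 4. Adm, the vasodilator adrenomedullin, shared that order, at 1261, 3312 and 1337. Vegfa rose by +1.39 ± 0.41, a call that ended without KSR1 replicate 2 (adjusted p = 0.0805), KSR1 replicate 3 (0.133) or double-line replicate 2 (0.142). Oxygen and cell density are not given in the sources used here.

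**Figure D4:**
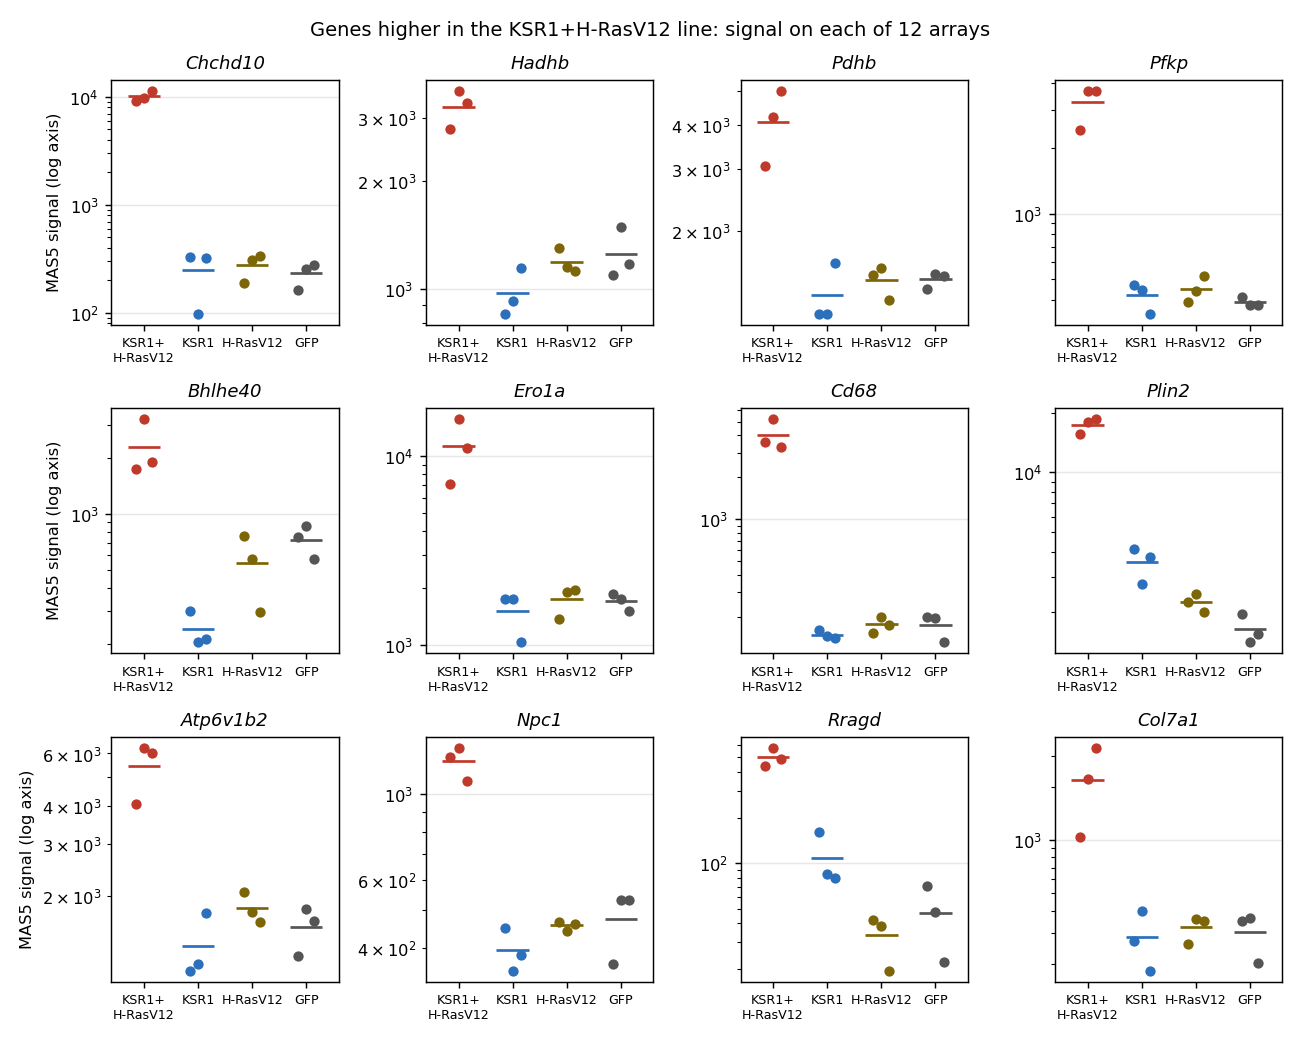
MAS5 signal (log axis) of 12 genes called higher in the double line, on each of 12 arrays, with the double line left of the KSR1 line and the H-RasV12 and GFP lines to the right. Points are arrays and bars are means of 3. In all 12 panels the 3 double-line arrays lie above the other 9.

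Extracellular matrix genes were called in both directions. Of 25 collagen and laminin chains 4 rose (16%) and 7 fell (28%), and of 31 matricellular proteins and proteoglycans 3 rose (9.68%) and 10 fell (32.3%), beside 9.13% rises and 7.24% falls over all genes. The share of rises among the matricellular genes was thus near that of all genes. Omission of KSR1 replicate 2 left 3 lower collagens and omission of double-line replicate 3 left 4, and omission of KSR1 replicate 1 left 6 lower matricellular genes. The 4 collagens that rose were Col4a1, Col4a2, Col6a3 and Col7a1. Col4a1, a basement membrane chain, read 1496, 2547 and 2043 on the double-line arrays, against 245, 87.8 and 174 on the KSR1 arrays (+3.48 ± 0.28, adjusted p = 2.25e-06) and Col4a2, which is transcribed from the same promoter region, 1494, 1589 and 1119 on the double-line arrays, against 589, 185 and 169 on the KSR1 arrays (+2.28 ± 0.34, adjusted p = 0.000329). Col6a3, a beaded filament chain, read 9059, 8331 and 6162 on the double-line arrays, against 1434, 1017 and 1062 on the KSR1 arrays (+2.72 ± 0.22, adjusted p = 2.25e-06), and Col7a1, the anchoring fibril collagen, 1039, 2213 and 3337 on the double-line arrays, against 269.7, 396 and 183 on the KSR1 arrays (+2.77 ± 0.37, adjusted p = 0.000148). For Col4a1, Col4a2 and Col6a3 the KSR1 line was low beside all others, and Col6a3 averaged 6920 with H-RasV12 and 4414 with GFP. For Col7a1 the double line was high beside all others, which averaged 322 with H-RasV12 and 305 with GFP. Another basement membrane collagen, Col18a1, named after its values were seen, fell, with 803, 643 and 277 on the double-line arrays, against 976, 1748 and 1051 on the KSR1 arrays (-1.18 ± 0.32, adjusted p = 0.0214). The Col18a1 call ended without KSR1 replicate 2 (adjusted p = 0.113) or double-line replicate 3 (0.0709). Col4a5 did not pass (+0.60 ± 0.27, adjusted p = 0.162).

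Col6a1, the chain that joins Col6a3, fell, with 695, 697 and 268 on the double-line arrays, against 1438, 1314 and 1104 on the KSR1 arrays (-1.29 ± 0.29, adjusted p = 0.0069), and Col8a1 fell as well, with 182, 273 and 400.2 on the double-line arrays, against 1332, 1134 and 1077 on the KSR1 arrays (-2.02 ± 0.36, adjusted p = 0.00133). Col1a1 spread widely in the double line, with 4299, 1921 and 178 on the double-line arrays, against 7550, 9357 and 8475 on the KSR1 arrays (-2.83 ± 0.73, adjusted p = 0.0172, 0.0613 without KSR1 replicate 2), and the proteoglycan gene Bgn showed the same spread, with 3945, 1680 and 228 on the double-line arrays, against 8132, 9257 and 8759 on the KSR1 arrays (-2.87 ± 0.65, adjusted p = 0.00722). In both, double-line replicate 3 was by far the lowest array. Ccn2, a connective tissue growth factor, read 32.2, 3.97 and 9.90 on the double-line arrays, against 223, 254 and 492 on the KSR1 arrays (-3.16 ± 0.47, adjusted p = 0.000349), while the related Ccn4 read 2043, 1914 and 2004 on the double-line arrays, against 249, 218 and 272 on the KSR1 arrays (+2.90 ± 0.19, adjusted p = 2.6e-07) and Ccn5 rose by +1.76 ± 0.27. Members of this 1 family thus changed in opposite directions, under quantile normalization and median centring too. Ccn5 averaged 274 in the double line, 64.0 in the KSR1 line, 221 in the H-RasV12 line and 1722 in the GFP line. Without KSR1 it was called lower with H-RasV12 (-2.85 ± 0.27, adjusted p = 0.000306).

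Of 23 matrix metalloproteases, plasminogen system genes and inhibitors 2 rose and 6 fell, beside 9.13% rises and 7.24% falls over all genes. The rises were thus near the share of all genes. Adam8, a membrane protease, read 33.8, 34.6 and 62.0 on the double-line arrays, against 461, 483 and 515 on the KSR1 arrays (-2.96 ± 0.39, adjusted p = 0.00013). Adam19 fell by 1.78 ± 0.41 on the log2 scale. Plat, the tissue plasminogen activator, rose by +1.37 ± 0.25, while Plaur, the receptor of the other plasminogen activator, fell, as given above. Of 20 integrins, cadherins and protocadherins 7 fell and 1 rose. Itga3, a laminin-binding integrin, read 234, 258 and 186 on the double-line arrays, against 824, 1283 and 506 on the KSR1 arrays (-1.76 ± 0.29, adjusted p = 0.000839), and Itga6, another, 161, 158 and 132 on the double-line arrays, against 514, 316 and 578 on the KSR1 arrays (-1.47 ± 0.32, adjusted p = 0.00616). Alcam, an adhesion molecule of the immunoglobulin family, read 40.9, 32.9 and 23.9 on the double-line arrays, against 396, 201 and 276 on the KSR1 arrays (-2.46 ± 0.29, adjusted p = 5.96e-05), and Pcdh7 503, 209.9 and 147 on the double-line arrays, against 1583, 1884 and 1355 on the KSR1 arrays (-2.55 ± 0.42, adjusted p = 0.000803). Every KSR1 array was above every double-line array in these 4. The exception, Ncam1, rose by +1.15 ± 0.21.

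Of 16 mesenchymal factors and epithelial genes 6 fell and 1 rose. Prrx2, a homeobox factor of limb mesenchyme, read 524, 313 and 311 on the double-line arrays, against 2337, 2888 and 3151 on the KSR1 arrays (-2.82 ± 0.23, adjusted p = 2.24e-06), and Prrx1 261, 194 and 255 on the double-line arrays, against 1090, 1169 and 1057 on the KSR1 arrays (-2.13 ± 0.27, adjusted p = 0.000118). Snai1, a repressor of E-cadherin, read 405, 337 and 172 on the double-line arrays, against 596, 1337 and 1090 on the KSR1 arrays (-1.65 ± 0.33, adjusted p = 0.0033). All were lower on each double-line array. Cdh1, which encodes E-cadherin, did not pass (-0.34 ± 0.27, adjusted p = 0.46), and the lines overlapped. Nor did the factor genes Snai2 (-0.33 ± 0.23, adjusted p = 0.402), Twist1 (-0.46 ± 0.24, adjusted p = 0.227) and Zeb1 (-0.23 ± 0.17, adjusted p = 0.419). Epithelial genes did not share a direction: the tight junction gene Cldn3 read 67.1, 66.9 and 82.1 on the double-line arrays, against 571, 410.1 and 397 on the KSR1 arrays (-2.33 ± 0.31, adjusted p = 0.000142), and the keratin gene Krt19 1185, 1014 and 1427 on the double-line arrays, against 678, 303 and 273 on the KSR1 arrays (+1.58 ± 0.31, adjusted p = 0.00276). Epcam, Krt8 and Krt14 averaged under 23 in both lines.

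Of 24 genes of the TGF-beta, activin and BMP system 7 fell and 0 rose, with a median of -0.51. One rose with the replicate block, and also without KSR1 replicate 3. Bmp4, a bone morphogenetic ligand, read 27.7, 31.8 and 21.9 on the double-line arrays, against 719.7, 639 and 1406 on the KSR1 arrays (-4.15 ± 0.44, adjusted p = 2.62e-05). Fst, which traps activin, read 127, 7.29 and 33.4 on the double-line arrays against 1924, 1851 and 1693 on the KSR1 arrays. Ltbp2, a matrix protein of the latent TGF-beta binding family, read 195, 90.0 and 52.1 on the double-line arrays, against 941, 722 and 686 on the KSR1 arrays (-2.70 ± 0.33, adjusted p = 8.42e-05). The double line was lower on every array in all 3. Fstl1, a follistatin-like secreted protein, fell by 1.84 ± 0.27 and the BMP target gene Id3, named after its values were seen, by 1.58 ± 0.31 on the log2 scale.

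**Figure D5:**
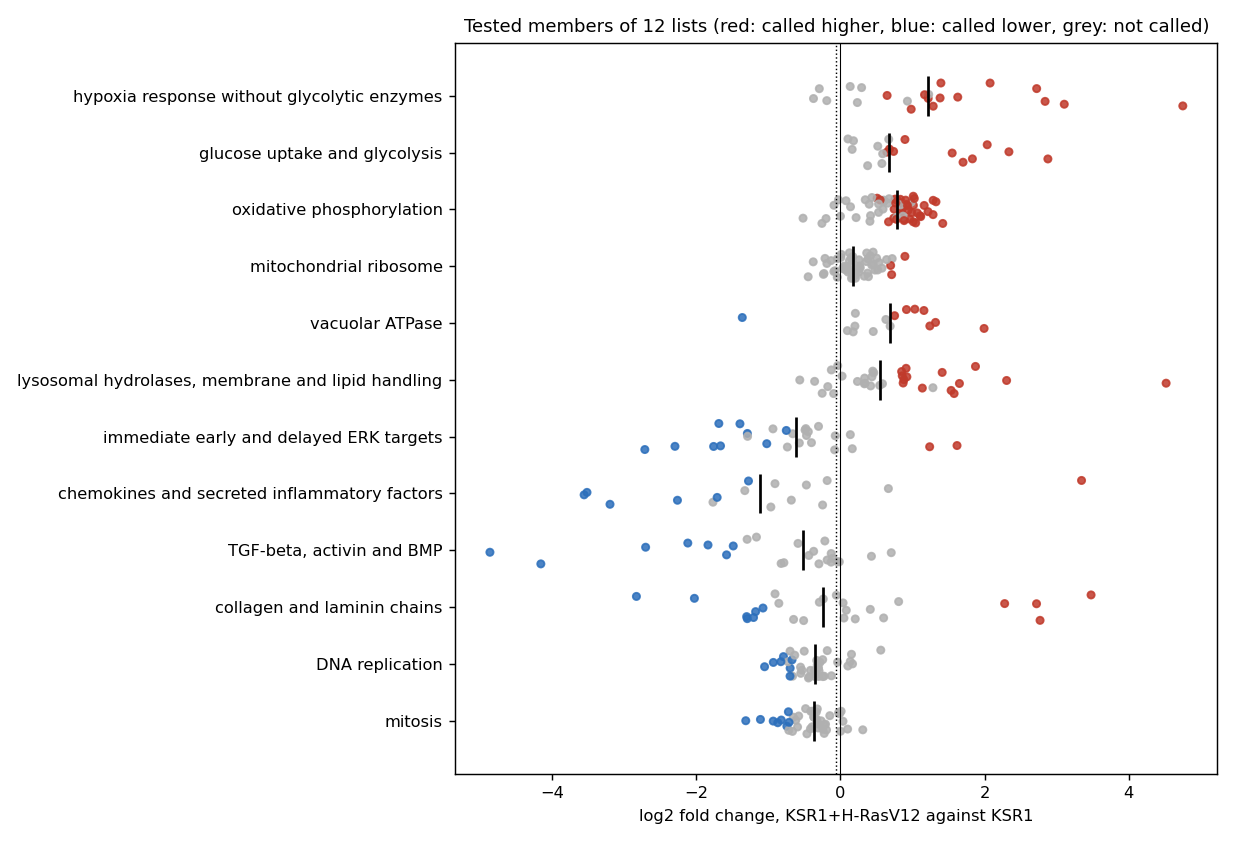
Log2 fold change (double line against KSR1 line) of every tested member of 12 lists, 1 point a gene, red where called higher, blue where called lower and grey where not called, with the list's median as a bar and the median of all genes, -0.06, as a dotted line. The medians run from +1.22 for the hypoxia response to -1.12 for the chemokines, and the mitochondrial ribosome lies at +0.18.

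Some cell cycle genes fell. Of 39 DNA replication genes 7 fell and 0 rose (median -0.36), and of 43 mitosis genes 8 fell and 0 rose (-0.37). Over all genes 7.24% fell and 9.13% rose. With the replicate block 1 replication gene rose. Under median centring 1 replication gene and 2 mitosis genes fell. Omission of KSR1 replicate 2 or double-line replicate 2 left 1 replication gene, and omission of KSR1 replicate 1, KSR1 replicate 3, GFP replicate 2 or any H-RasV12 array left 3 or 4. For mitosis, omission of double-line replicate 2 left 2 genes, of KSR1 replicate 2 left 4, and of KSR1 replicate 1 or double-line replicate 1 left 5. Members that kept their call in each of 22 alternatives included Pola2, a subunit of the primase and polymerase alpha complex, with 638, 425 and 545 on the double-line arrays, against 1294, 1118 and 971 on the KSR1 arrays (-1.05 ± 0.24, adjusted p = 0.00718), the spindle midzone gene Prc1, with 1383, 1454 and 2168 on the double-line arrays, against 3897, 4479 and 3920 on the KSR1 arrays (-1.31 ± 0.22, adjusted p = 0.000866), and Stmn1, a microtubule destabiliser, with 2963, 2585 and 1904 on the double-line arrays, against 4524, 5923 and 5538 on the KSR1 arrays (-1.11 ± 0.20, adjusted p = 0.00134). The lines did not overlap in these 3.

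Of 19 p53 targets and cell cycle inhibitors 4 rose and 1 fell, beside 9.13% rises and 7.24% falls over all genes. The falls were thus near the share of all genes. Ccng2, a cyclin that rises as cells leave the cycle, read 666, 3240 and 1357 on the double-line arrays, against 543, 321 and 259.6 on the KSR1 arrays (+1.94 ± 0.42, adjusted p = 0.00546), and the stress gene Gadd45g 1110, 996 and 897 on the double-line arrays, against 138, 269 and 395 on the KSR1 arrays (+1.92 ± 0.40, adjusted p = 0.00435). Cdkn2c, an inhibitor of CDK4 and CDK6, fell, with 679, 589.5 and 285 on the double-line arrays, against 1390, 1192 and 1303 on the KSR1 arrays (-1.37 ± 0.26, adjusted p = 0.00236). Cdkn1a, the main p53-induced inhibitor p21, had 1310, 1205 and 834 on the double-line arrays, against 1040, 1107 and 1130 on the KSR1 arrays (+0.01 ± 0.24, adjusted p = 0.989), and the lines overlapped. With KSR1 replicate 2 or double-line replicate 2 omitted 2 rose, and with KSR1 replicate 1 omitted, or with the replicate block, 2 fell.

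Of 37 genes of glutathione metabolism and antioxidant defence 11 rose and 2 fell, beside 9.13% rises and 7.24% falls over all genes. The falls were thus near the share of all genes. The rises in this list numbered 7 without KSR1 replicate 2, KSR1 replicate 3 or double-line replicate 1. Mgst1, a membrane glutathione transferase, read 2014, 1959 and 1470 on the double-line arrays, against 744, 170.0 and 325 on the KSR1 arrays (+2.29 ± 0.42, adjusted p = 0.00164). Txnip, which binds thioredoxin and responds to glucose, read 799, 849 and 976 on the double-line arrays, against 257, 181 and 172 on the KSR1 arrays (+2.00 ± 0.22, adjusted p = 3.29e-05). The NRF2 target Nqo1 fell, with 356, 406 and 346 on the double-line arrays, against 1036, 724 and 1205 on the KSR1 arrays (-1.34 ± 0.21, adjusted p = 0.000572), as did the extracellular superoxide dismutase gene Sod3 (-2.35 ± 0.43). None of these 4 genes had overlapping lines.

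Of 79 solute carriers 10 rose (12.7%) and 5 fell (6.33%), and 8 fell with the replicate block. These shares were near those of all genes, 9.13% and 7.24%, so the members below are given as single genes. Slc27a1, a fatty acid transporter, read 1757, 814 and 462 on the double-line arrays, against 223, 37.5 and 24.3 on the KSR1 arrays (+3.33 ± 0.66, adjusted p = 0.00292). Slc6a8, the creatine transporter, read 1835, 1736 and 1869 on the double-line arrays, against 323, 313 and 251 on the KSR1 arrays (+2.53 ± 0.24, adjusted p = 9.53e-06). Slc25a39, a mitochondrial carrier of glutathione, read 5208, 5447 and 4997 on the double-line arrays, against 1572, 1739 and 1755 on the KSR1 arrays (+1.62 ± 0.17, adjusted p = 1.99e-05). The 3 transporters were higher on all double-line arrays. Slc12a2, the sodium, potassium and chloride cotransporter, fell, with 749, 864 and 1018 on the double-line arrays, against 2804, 2225 and 2952 on the KSR1 arrays (-1.58 ± 0.23, adjusted p = 0.000278), and the amino acid transporter gene Slc38a4 fell by 1.87 ± 0.27 on the log2 scale. The falls numbered 3 without KSR1 replicate 2.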

How the data were processed

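RNA of 4 lines of mouse embryonic fibroblasts was measured on 12 Affymetrix MG-U74Av2 arrays, 3 per line. The deposited values are MAS5 signal intensities, per the submitters' processing notes, on a linear scale with a 2% trimmed mean of 500.3 on each array. The MAS5 version is not given in the sources used here. The number of arrays limits the precision.

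Of 12488 probe sets, 66 controls were left out and 5525 did not exceed the median signal of 181.4 on at least 3 arrays. The remaining 6897 were fitted as log2(signal + 23) with limma 3.58.1 in R 4.3.3 (lmFit, eBayes with an intensity trend, 4 group means over 12 arrays, 8 residual degrees of freedom), with Benjamini-Hochberg adjustment over all of them. The pseudocount of 23 is the 20th percentile of all values. Differences between lines are log2 fold changes, and ± beside them is the SE. Of the probe sets, 10833 had 1 gene symbol in the platform annotation, 396 several and 1193 none, and only the first kind were named. In data simulated for this comparison, on 6897 probe sets, 56% of 2-fold and 94% of 4-fold changes were recovered, with 4 unchanged probe sets called.

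Replicate numbers are those of the titles. Deviations from the group means correlated between same-numbered arrays of the 2 lines at 0.214, 0.162 and 0.432, and between other pairs from -0.26 to 0.028, so a replicate block was tried. The other alternatives were quantile normalization, median centring, other pseudocounts and filters, no intensity trend, the 6 arrays alone, replicates 2 and 3 alone, another probe set of a gene and leaving out each array.

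The gene lists and the genes named were chosen with earlier results of these data known. The genes named were first the 15 largest changes in each direction among called genes whose lines did not overlap. Added to these were up to 5 called in each direction per list, and markers. For the first kind the lack of overlap was a condition of the choice, so it is a description. The transcript of the Ras transgene was not analysed here. Promoters were taken from RefSeq, GRCm38.p6.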

Additional observations from a re-analysis of the deposited data

Results flagged for a closer look

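For 110 of the 146 genes named above and tested, the response to H-RasV12 with KSR1 differed from the response without KSR1 by the test of the difference itself, the interaction in limma, with 65 positive and 45 negative values. Each value is the log2 fold change of the double line against the KSR1 line minus that of the H-RasV12 line against the GFP line. Since most of these genes were named because the first of these changes was large, the number is a description.

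Of ERK pathway, EGF receptor and inflammatory genes, the difference was positive for Cxcl12 (+3.94) and Mcl1 (+1.19). It was negative for Hmga2 (-4.47), Cxcl2 (-3.90), Ereg (-3.79), Ptgs2 (-3.67), Dusp6 (-3.21) and Ptgis (-2.87). Then came Errfi1 (-2.50), Phlda1 (-2.44), Egfr (-2.26), Egr1 (-2.16), Ptges (-2.03) and Hbegf (-1.61). The smallest here were Plaur (-1.44), Rasa1 (-1.28) and Timp1 (-1.21). Of lysosome and autophagy genes, the difference was positive for Creg1 (+4.54), Cd68 (+4.50), Ctsk (+4.30), Rragd (+2.31), Lipa (+2.02) and Plin2 (+1.85). Then came Atp6v1b2 (+1.77), Npc1 (+1.61), Atp6v1a (+1.51), Atp6v1d (+1.40), Atp6v1g1 (+1.33) and Atp6v1c1 (+1.27). The smallest here were Grn (+1.22), Sqstm1 (+1.21), Ctsa (+1.14), Ctsb (+0.94) and Igf2r (+0.81). Of mitochondrial and fatty acid genes, the difference was positive for Chchd10 (+5.13), Lpl (+4.99), Pdk4 (+2.84), Pdk1 (+1.75), Decr1 (+1.72) and Pdhb (+1.62). Then came Ndufa6 (+1.52), Uqcr10 (+1.46), Etfdh (+1.42), Sdhd (+1.34), Idh3a (+1.28) and Uqcrb (+1.27). The smallest here were Dlat (+1.26) and Sdhb (+0.98).

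Of glycolysis and hypoxia genes, the difference was positive for Adm (+4.68), Bhlhe40 (+3.59), Bnip3 (+2.92), Ero1a (+2.82), Pfkp (+2.69) and Eno2 (+2.51). Smaller values of that sign were Ndrg1 (+2.49), Ldhb (+2.04) and Slc2a3 (+1.72). Of matrix, adhesion and mesenchymal genes, the difference was positive for Ccn5 (+4.60), Ccn4 (+3.83), Tgfbi (+3.52), Col4a1 (+3.44), Col7a1 (+2.67) and Col4a2 (+2.23). Smaller values of that sign were Col6a3 (+2.06), Krt19 (+1.93), Ncam1 (+1.78) and Plat (+1.46). It was negative for Igfbp4 (-5.38), Adam8 (-4.88), Fst (-3.89), Alcam (-3.34), Itga6 (-2.80) and Prrx1 (-2.78). Smaller values of that sign were Col8a1 (-2.73), Prrx2 (-2.70), Msln (-2.46), Bmp4 (-2.41), Dcn (-2.07) and Cldn3 (-1.93). The smallest here were Itga3 (-1.89), Col18a1 (-1.86) and Col6a1 (-1.65). For Ccn5 the difference combined a change of +1.76 with KSR1 and a called change of -2.85 without KSR1. Of cell cycle and redox genes, the difference was positive for Mgst1 (+3.04), Gadd45g (+2.75), Ccng2 (+2.11) and Txnip (+1.45). It was negative for Prc1 (-1.45), Cdkn2c (-1.44), Pola2 (-1.39), Nqo1 (-1.19) and Stmn1 (-1.08). Of transporters and other genes, the difference was positive for Vamp5 (+4.27), Slc27a1 (+4.08), Selenbp1 (+4.02), Cd28 (+3.92), Plscr2 (+3.85) and Cerk (+3.59). Smaller values of that sign were Stbd1 (+3.42), Slc6a8 (+2.98) and Slc25a39 (+1.64). It was negative for Gap43 (-5.09), Uchl1 (-4.72), Ptpn22 (-4.33), Cd34 (-3.80), Chrnb1 (-3.43) and U90926 (-3.17). Smaller values of that sign were Sgce (-2.61), Slc38a4 (-2.40), Map2 (-2.35) and Slc12a2 (-1.52).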

How the results depend on the processing

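Of 215 called genes of the naming rule 157 kept their call in every one of 22 alternatives, 58 lost it in at least 1, and 0 reversed. With the replicate number as a block, the pairing gave 684 higher and 606 lower probe sets and 392 and 349 for the interaction, and 0 of the 215 lost their call. The block moved these list counts by over 1.5 times: ERK core 1 higher and 2 lower, prostaglandin 5 lower, mitochondrial ribosome 5 higher, cathepsins 1 lower, TGF-beta 1 higher, DNA replication 1 higher, p53 targets 2 lower and solute carriers 8 lower. No other count of the lists described moved by as much with the block.

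Median centring gave 308 lower probe sets, 2 higher in the ERK core, 1 lower in DNA replication, 2 lower in mitosis and 3 lower solute carriers, and quantile normalization gave 1 higher in the ERK core. Fitting the 6 arrays alone gave 0 higher for prostaglandins, 1 higher for the mitochondrial ribosome, 4 lower collagens, 2 lower in DNA replication, 4 lower in mitosis, 7 higher for glutathione and 3 lower solute carriers. No filter gave 2 higher ERK feedback genes, 2 higher chemokines, 1 lower in fatty acid oxidation and 3 lower in DNA replication, and no intensity trend gave 4 lower in DNA replication. Replicates 2 and 3 alone gave 0 higher ERK feedback genes, 1 lower lysosomal gene and 4 lower in DNA replication. The second probe set of a gene gave 1 higher ERK target.

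Leaving out 1 array at a time gave 382 to 598 higher and 316 to 583 lower probe sets, and 188 to 347 and 151 to 332 for the interaction. By list the ranges were 0 to 1 higher and 1 to 3 lower in the ERK core, 1 to 3 lower ERK feedback genes, 0 to 1 higher for prostaglandins, 20 to 38 higher in oxidative phosphorylation, 1 to 4 higher for the mitochondrial ribosome, 5 to 11 higher in glycolysis, 8 to 14 higher in the hypoxia response, 0 to 1 lower cathepsins, 0 to 1 lower lysosomal genes, 3 to 8 lower collagens, 6 to 11 lower matricellular genes, 0 to 1 higher in TGF-beta, 1 to 7 lower in DNA replication, 2 to 11 lower in mitosis, 2 to 4 higher and 1 to 2 lower p53 targets, 7 to 11 higher for glutathione and 3 to 6 lower solute carriers. The cause of these shifts was not tested. Signals near the pseudocount limit the fold changes of dim probe sets.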
